A study of Drosophila melanogaster with 12 samples.

Results

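The genes described here encode the proteins of the mitochondrial ribosome of Drosophila melanogaster. They were chosen by name, as every gene in the deposited exon count table whose name begins with mRpL or mRpS followed by a digit, and the counts of their exon entries were summed per gene. The rule found 72 of the 16413 gene names in the table, 46 named for the large subunit (mRpL) and 26 for the small subunit (mRpS). The symbols of all 72 are still in use, and all 72 are annotated as protein coding.

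Mitochondria make a small set of respiratory chain and ATP synthase subunits on ribosomes of their own. The RNA of these ribosomes is encoded in mitochondrial DNA, whereas their proteins are encoded in the nucleus, made in the cytosol and imported. The large subunit joins amino acids into the chain, and the small subunit holds the messenger RNA and reads its codons.

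RNA was sequenced from whole third-instar larvae in 4 groups of 3 libraries, lettered A, B and C. Wild-type controls and mlx1 mutants, which are null for Mlx (with which the sugar sensor Mondo binds DNA), had all been raised on 10% yeast. The sample labels list 3 h of egg laying and 24 h for larval transfer in all 4 groups. Larvae of the low sugar groups were moved to fresh 10% yeast and collected after 1.5 h, and those of the high sugar groups were moved to 10% yeast with 20% sucrose and collected after 8 h. The diet contrast therefore cannot be told apart from the hours after transfer, nor from a tag in the column names that is L2 in every low sugar and L3 in every high sugar library and whose meaning is not given. Each genotype was represented by 1 line, so effects of Mlx and of anything else that separates those lines cannot be told apart. Separate cultures are not stated for the libraries of a group, and the p-values below measure the spread between these libraries, which may be technical.

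Library totals ranged from 8923055 to 12506335 counts, of which the 72 genes took 0.281% to 0.453%. Reads of the gene that carries the mutation, listed as bigmax, checked the genotype labels. It stood at 26.2 to 34.1 CPM (counts scaled to library size) in the 6 wild-type libraries and at 0.488 to 1.08 CPM in the 6 mutant libraries. All 10 muscle, 8 midgut and 6 neuron marker genes passed the filter on low counts. Among 7 fat body markers the larval serum proteins were at or near 0, while Rfabg (apolpp), the apolipoprotein of the fat body, reached 10891 CPM. No male germ line marker passed the filter.

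Counts were tested with edgeR's quasi-likelihood model over all 10045 genes that passed the filter, and a difference counted as called when its Benjamini-Hochberg adjusted p was under 0.05. Of the 72 genes 70 passed. The exceptions were mRpL53, with no count in any library, and mRpL42, with 3 counts in all. Each exon entry of these genes overlaps an entry of another gene, AGO1 or CG33155 for mRpL53 and cdc2rk for mRpL42, and whether reads were left uncounted there was not tested. Levels are given in CPM after TMM normalization, with the SD of the 3 libraries of a group.

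The genes share several features that the rule did not use. They are scattered over the genome, 20 on chromosome arm 3R, 17 on 3L, 12 on 2L, 12 on 2R and 11 on X, and the closest pair, mRpL3 and mRpS30 on X, lie 23383 bases apart. They are short, with a median of 778.5 bases of exon against 1484 over all genes. Entries of 41 of the 72 (56.9%) overlap an entry of another gene, compared with 28.0% of all genes. Of their 204 exon entries 35 were 0 in every library.

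To compare levels between genes, counts were also expressed per length (RPKM) over entries that overlap no other entry, for genes with at least 100 such bases in all, which left 57 of the 72. Their median over the 12 libraries was 56.4 RPKM, with a median of 51.9 for 37 large subunit and 63.7 for 20 small subunit genes. The median of 12504 genes with reads was 7.63 RPKM. On the same scale 58 nuclear genes of the respiratory chain and ATP synthase had a median of 194 RPKM and 78 cytosolic ribosomal protein genes one of 2547 RPKM.

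At the top stood mRpL12, at 192 RPKM, followed by mRpL30 at 172 RPKM, for which only 224 of 696 bases could be used. mRpL12 is a protein of the flexible stalk that recruits translation factors to the ribosome. Its level was 227 ± 10.7 RPKM in wild type on low sugar (SD, n = 3), 233 ± 31.1 in mutants on low sugar, 170 ± 17.0 in wild type on high sugar and 136 ± 9.73 in mutants on high sugar. mRpL48 was lowest, at 21.9 RPKM, although only 175 of its bases could be used. The interquartile range of the 57 genes was 48.2 to 73.5 RPKM.

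Summed over the 72 genes, the level was lower on high sugar in both genotypes. The sum was 4089 ± 220 CPM in wild type on low sugar (SD, n = 3) and 3404 ± 216 CPM in wild type on high sugar. In mutants it was 4017 ± 551 CPM on low sugar and 2943 ± 108 CPM on high sugar. The ranges did not overlap between the diets, being 3917 to 4337 against 3172 to 3599 CPM in wild type and 3542 to 4621 against 2840 to 3056 CPM in mutants. On low sugar the genotypes overlapped, and on high sugar every mutant library lay below every wild-type library. The large subunit genes made up 2511 ± 125 CPM of the sum in wild type on low sugar and the small subunit genes 1578 ± 97.4 CPM.

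**Figure D1:**
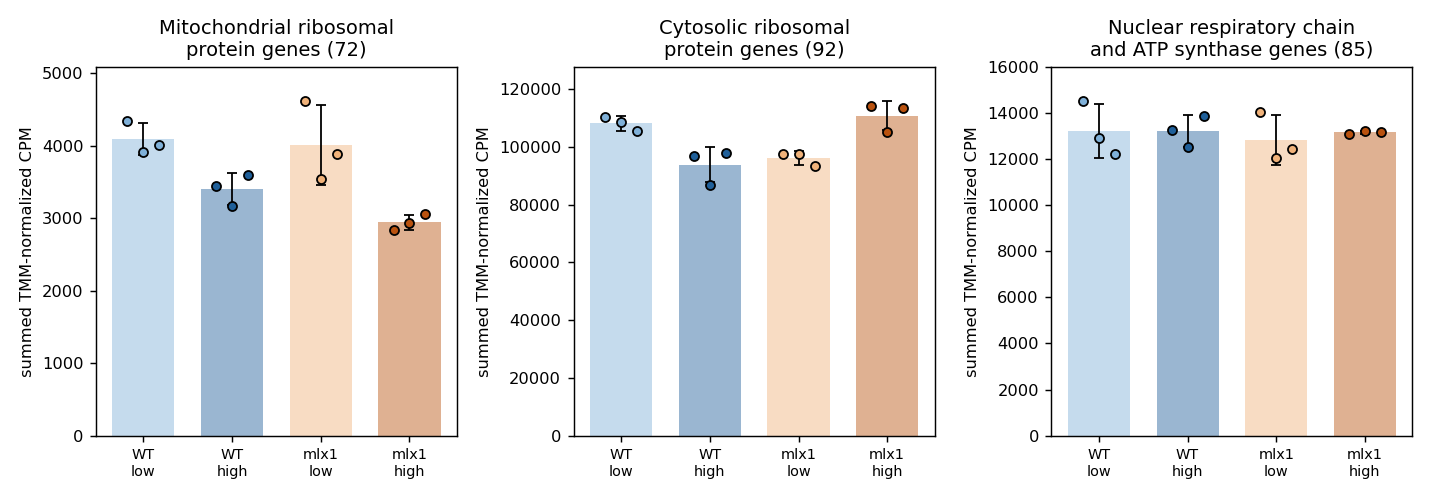
Summed TMM-normalized CPM of the mitochondrial ribosomal protein genes, the cytosolic ribosomal protein genes and the nuclear genes of the respiratory chain and ATP synthase, by group. Points are libraries, bars are means and error bars are SD (n = 3); the sum of the mitochondrial ribosomal protein genes is lowest in mutants on high sugar (2943 ± 108 CPM), whereas that of the nuclear respiratory chain genes is 13209 CPM in wild type on low sugar and 13214 CPM on high sugar.

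In these libraries of whole animals, fewer cells of a type and less RNA per cell cannot be told apart. The genes moved together among the libraries of a group. For each of the 70 genes the deviation of its log2 CPM from the group mean was correlated over the 12 libraries with the median deviation of the other genes, and the median r was 0.749. The value was above 0.5 for 64 of 70 and above 0 for all 70. Over all genes tested, these 70 among them, the median r with the median deviation of the 70 genes was 0.148. These points share libraries and normalization, and the values describe likeness only. mRpS35 (0.962), mRpL43 (0.949) and mRpL19 (0.943) were the most alike to the rest, and mRpS7 (0.202), mRpL34 (0.321) and mRpS17 (0.345) the least.

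In wild type, high sugar against low sugar, 21 of the 70 genes (30%) fell and 1 rose. Over all genes tested 11.6% were called lower and 11.5% higher in this contrast. The median log2 fold change of the 70 genes was -0.27 (interquartile range -0.41 to -0.17), a fold of 0.830, compared with -0.05 over all genes, and 66 of the 70 values were negative. Of the large subunit genes 12 of 44 fell, with a median log2 fold change of -0.26. Of the small subunit genes 9 of 26 fell and 1 rose, with a median of -0.32. At an unadjusted p under 0.05, 32 genes were lower and 1 was higher. No share over all genes was taken at that threshold, here or for the other counts at an unadjusted p below.

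mRpS16, the counterpart of bacterial ribosomal protein S16, fell most in wild type. Its level was 44.4, 44.1 and 35.5 CPM in low sugar libraries A, B and C and 29.0, 20.4 and 24.7 CPM in high sugar libraries, and the diets did not overlap. Its log2 fold change was -0.74 ± 0.14 (SE; edgeR, adjusted p = 0.00301).

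mRpS10, a protein of the head of the small subunit, had 55.8, 55.5 and 58.9 CPM on low sugar and 41.5, 30.4 and 42.3 CPM on high sugar in wild type. The low sugar libraries lay close together and above all those on high sugar. The log2 fold change was -0.58 ± 0.14 (edgeR, adjusted p = 0.0109).

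mRpL52, a large subunit protein with no bacterial counterpart, fell from 63.1, 64.7 and 62.0 CPM to 46.0, 37.7 and 43.4 CPM in wild type. Each high sugar library lay well below each low sugar library. Its log2 fold change was -0.58 ± 0.11 (edgeR, adjusted p = 0.00274). mRpS6, on the platform of the small subunit, went from 61.2, 52.6 and 51.1 CPM to 37.7, 34.0 and 39.6 CPM, a log2 fold change of -0.57 ± 0.12 (adjusted p = 0.00633).

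Among the other genes with the largest falls in wild type were mRpS18C, at -0.61 ± 0.14 on the log2 scale (edgeR, adjusted p = 0.00912), mRpS24, the mitochondrial S3 protein, at -0.58 ± 0.19 (adjusted p = 0.0478), mRpL50 at -0.55 ± 0.12 (adjusted p = 0.00759) and mRpS25 at -0.55 ± 0.15 (adjusted p = 0.0192). mRpS10, mRpL52 and mRpS6 kept the call in all 16 alternative settings and mRpS16 in the 15 that could test it, while mRpL50 and mRpS18C lost it in 1, mRpS25 in 2 and mRpS24 in 7. Leaving out wild-type low sugar library A, B or C left 13 calls lower in each case, and leaving out wild-type high sugar library B left 10. Over all genes 1112 of 10175, 742 of 10152, 855 of 10144 and 690 of 10172 were lower in these 4 fits, against 1164 of 10045.

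Larval cuticle genes, which follow the moulting cycle, also differed between the diets. In wild type 17 of 71 cuticle genes tested were lower on high sugar and 1 was higher, and their summed level was 26681 to 51625 CPM on low sugar and 13293 to 22790 CPM on high sugar. With the mean log2 level of the cuticle genes as a covariate, 45 of the 70 mitochondrial ribosomal protein genes were lower in wild type and the median log2 fold change was -0.40. Calls over all genes rose as well, with 1695 of 10045 lower in that fit against 1164 without the covariate. Without the 3 libraries farthest below their group in cuticle genes, 26 were lower, beside 1491 of 10138 over all genes. Muscle markers were higher for 3 of 10 genes, with sums of 53171 to 78640 CPM on low sugar and 72689 to 78839 CPM on high sugar. Midgut markers were higher for 5 of 8 genes and lower for 1, with sums of 3216 to 3952 CPM on low sugar and 4273 to 5677 CPM on high sugar, which did not overlap. The part of muscle and midgut markers in the result was not tested.

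In mlx1 mutants, high sugar against low sugar, 52 of the 70 genes (74.3%) fell and none rose by edgeR, nor did any rise at an unadjusted p under 0.05 or by DESeq2. The shares over all genes tested were 15.7% called lower and 13.5% called higher. The median log2 fold change was -0.48 (interquartile range -0.61 to -0.35), a fold of 0.719, against -0.01 over all genes, and 68 of the 70 values were negative. The falls took in 33 of 44 large subunit genes (median log2 fold change -0.47) and 19 of 26 small subunit genes (median -0.53). Without mutant high sugar library A, 29 were called lower, beside 1095 of 10174 over all genes against 1580 of 10045 in the main fit. The median log2 fold change of the 70 genes was -0.46 in that fit.

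**Figure D2:**
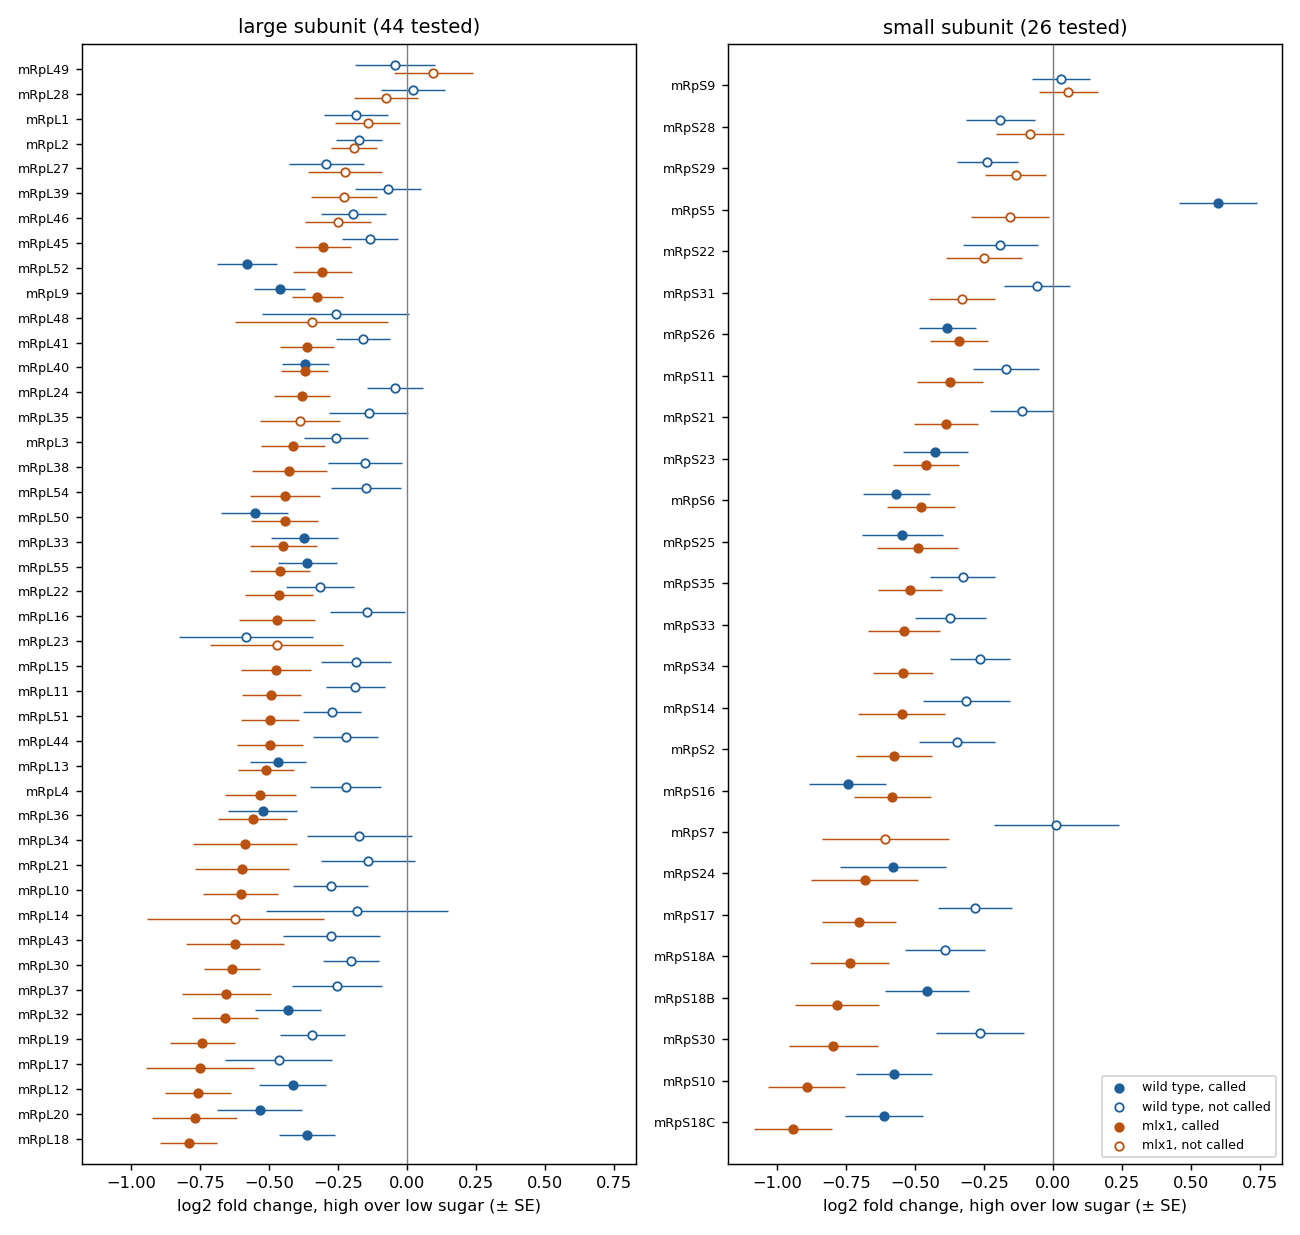
Log2 fold change of high over low sugar for each of the 70 genes tested, in wild type (blue) and mlx1 mutants (orange), with SE; filled points passed an adjusted p of 0.05 and open points did not. In mutants 52 filled points lie to the left of 0; in wild type 21 do, and mRpS5 alone is filled to the right.

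mRpS18C had the largest fall in mutants. It is 1 of 3 paralogs (mRpS18A, mRpS18B and mRpS18C) of the single bacterial S18 protein. The table places it at 3R:26249696-26250278, with no genome build named. It stood at 42.6, 37.3 and 31.9 CPM on low sugar and 16.05, 21.1 and 21.0 CPM on high sugar in mutants, so that the lowest low sugar library was above the highest on high sugar. The log2 fold change was -0.94 ± 0.14, a 1.92-fold fall (edgeR, adjusted p = 0.000435).

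mRpS18C is listed in 2 exon entries, and the second overlaps an entry of CG15536. In a fit of single entries the overlapping entry fell by 0.74 ± 0.15 on the log2 scale in wild type (edgeR, adjusted p = 0.00338) and the other entry had -0.09 ± 0.28 (adjusted p = 0.859). In mutants both fell, by 0.90 ± 0.15 (adjusted p = 0.000605) and by 1.21 ± 0.30 (adjusted p = 0.00926). The fall of mRpS18C in wild type thus rested on the overlapping entry and that in mutants did not. A difference between the entries was not tested.

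The other 2 paralogs fell in mutants as well. mRpS18B went from 31.7, 20.6 and 25.5 CPM to 15.5, 14.4 and 15.3 CPM, a log2 fold change of -0.78 ± 0.15 (edgeR, adjusted p = 0.00243). mRpS18A, whose mammalian counterpart sits in the large subunit, went from 51.4, 38.1 and 47.5 CPM to 23.3, 27.9 and 31.0 CPM, a log2 fold change of -0.74 ± 0.14 (adjusted p = 0.00247). The diets did not overlap for either gene. In wild type mRpS18B fell by 0.46 ± 0.15 (adjusted p = 0.0484) and mRpS18A, at -0.39 ± 0.14, did not pass (adjusted p = 0.069).

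mRpS10 fell further in mutants than in wild type in its estimate, from 59.8, 49.3 and 58.9 CPM to 26.2, 31.6 and 32.6 CPM. Its log2 fold change was -0.89 ± 0.14 (edgeR, adjusted p = 0.000514), against -0.58 ± 0.14 in wild type, and the difference of -0.32 ± 0.19 did not pass (adjusted p = 0.35). mRpS30, whose mammalian counterpart is also part of the large subunit, fell by 0.80 ± 0.16 in mutants (adjusted p = 0.00308). Its low sugar libraries were spread widely, at 308, 192 and 212 CPM, above 129, 141 and 140 CPM on high sugar. In wild type mRpS30 had -0.26 ± 0.16 (adjusted p = 0.255).

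Of the large subunit genes mRpL18 fell most in mutants. In bacteria its counterpart binds 5S ribosomal RNA. It had 73.5, 58.8 and 70.1 CPM on low sugar and 36.4, 39.5 and 41.1 CPM on high sugar, with no overlap, and a log2 fold change of -0.79 ± 0.10 (edgeR, adjusted p = 0.000153). In wild type it went from 76.9, 76.0 and 67.9 CPM to 59.0, 56.1 and 56.6 CPM, a log2 fold change of -0.36 ± 0.10 (adjusted p = 0.0238). Its only exon entry overlaps an entry of ox.

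mRpL12, the stalk protein, at 3L:8949891-8950684 in the table, had 193, 142 and 173 CPM on low sugar and 92.9, 103 and 104 CPM on high sugar in mutants. In wild type it had 177, 165 and 166 CPM and 125.9, 114.8 and 140.3 CPM. The diets were apart in both genotypes, with log2 fold changes of -0.76 ± 0.12 in mutants (edgeR, adjusted p = 0.000629) and -0.41 ± 0.12 in wild type (adjusted p = 0.0277). mRpL20, a protein that binds the large ribosomal RNA early in bacterial assembly, fell by 0.77 ± 0.15 in mutants (adjusted p = 0.00288), and mRpL17, which in bacteria lies near the exit of the peptide tunnel, by 0.75 ± 0.20 (adjusted p = 0.0127). Of the 8 genes with the largest falls in mutants, only mRpL17 lost the call under an alternative, in 2 of 16 settings.

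**Figure D3:**
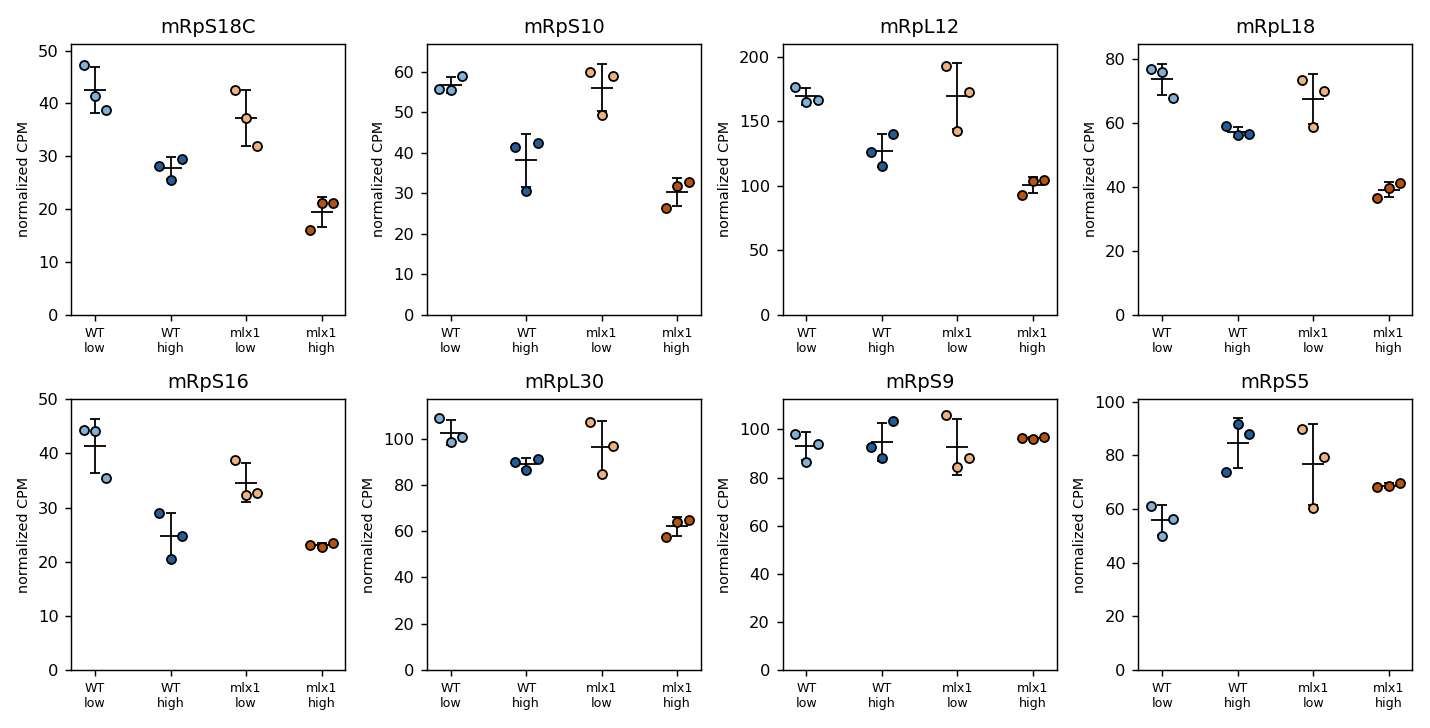
TMM-normalized CPM of 8 mitochondrial ribosomal protein genes in each library, with the mean and SD of each group (n = 3). In mutants the high sugar libraries lie below all low sugar libraries for mRpS18C, mRpS10, mRpL12, mRpL18, mRpS16 and mRpL30, the groups overlap for mRpS9, and mRpS5 is on average highest in wild type on high sugar.

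Neither diet contrast was called for 17 genes, 11 of the large subunit (mRpL1, mRpL14, mRpL2, mRpL23, mRpL27, mRpL28, mRpL35, mRpL39, mRpL46, mRpL48 and mRpL49) and 6 of the small subunit (mRpS22, mRpS28, mRpS29, mRpS31, mRpS7 and mRpS9). mRpS9, whose bacterial counterpart touches the tRNA in the small subunit, stood at 92.9 ± 5.84, 94.8 ± 7.82, 92.8 ± 11.6 and 96.5 ± 0.53 CPM in wild type on low and high sugar and mutants on low and high sugar (SD, n = 3). Its log2 fold changes on high sugar were 0.03 ± 0.11 in wild type and 0.06 ± 0.11 in mutants (edgeR, adjusted p = 0.878 and 0.735). mRpS29, the counterpart of the human GTP-binding protein DAP3, had -0.24 ± 0.11 and -0.14 ± 0.11 (adjusted p = 0.141 and 0.397). Precision differed among these genes: mRpL14, at 0.893 to 2.28 CPM, had -0.62 ± 0.32 in mutants (adjusted p = 0.174).

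Cuticle genes were lower on high sugar in mutants for 6 of 71 and higher for 2, with sums of 13930 to 32054 CPM on low sugar and 12580 to 17824 CPM on high sugar. With the cuticle covariate 59 of the 70 mitochondrial ribosomal protein genes fell in mutants, with a median log2 fold change of -0.52. Without the 3 libraries farthest below their group in cuticle genes 41 fell, with a median of -0.38. Over all genes 2258 of 10045 and 1645 of 10138 were lower in these fits, against 1580 of 10045 in the main fit. Fat body markers were lower on high sugar in mutants for both genes tested, with sums of 5221 to 9986 CPM and 2963 to 4180 CPM, nearly all of it Rfabg. Fbp1 was 0 in every library. Midgut markers were higher for 3 of 8 genes and lower for 1 on high sugar in mutants, with sums of 3249 to 3910 CPM and 3615 to 4211 CPM. Muscle markers were higher for 1 of 10 genes on high sugar in mutants. Their sums were 68052 to 81606 CPM on low sugar and 82777 to 89033 CPM on high sugar, which did not overlap. The part of the fat body, midgut and muscle markers in the result was not tested.

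All 21 genes that fell in wild type also fell in mutants, which is 100% of the calls in wild type and 40.4% of those in mutants. Over all genes tested 683 were lower in both, which is 58.7% of the 1164 called in wild type and 43.2% of the 1580 called in mutants. A further 31 fell in mutants and were not called in wild type. Across the 70 genes the log2 fold changes of both diet contrasts had r = 0.527, a correlation across genes, which are not independent replicates. The estimate was lower in mutants than in wild type for 56 of 70 genes, 37 of the large and 19 of the small subunit.

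The difference between the diet responses was tested as an interaction, the mutant response minus that of wild type. Of the 70 genes 1 was called lower, mRpS5, and none higher, by edgeR, while 7 were lower and none higher at an unadjusted p under 0.05. Over all genes tested 3.57% were called lower and 3.32% higher, so the share among the mitochondrial ribosomal protein genes (1.43%) was below the background. The median of the interaction was -0.23 on the log2 scale (interquartile range -0.33 to -0.04), against 0.01 over all genes. DESeq2 called 3 lower and none higher, beside 722 lower and 480 higher of 10045 over all genes. None of the 31 genes called in mutants alone passed the test of the interaction, and they are not shown to respond differently in the genotypes. mRpL18 and mRpL30 came nearest among those named here, each at -0.43 ± 0.14 (edgeR, adjusted p = 0.0964 and 0.094). Without mutant low sugar library A the median of the interaction was -0.12.

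mRpS5 went against the other genes in wild type. Its bacterial counterpart lines the path by which messenger RNA enters the small subunit, and the table places it at 3L:24530335-24536634. Wild type had 61.3, 50.0 and 56.4 CPM on low sugar, and 74.0, 91.8 and 88.0 CPM on high sugar, a log2 fold change of 0.60 ± 0.14 (edgeR, adjusted p = 0.0107). Mutants had 89.9, 60.5 and 79.5 CPM on low sugar, and 68.1, 68.5 and 69.6 CPM on high sugar, a log2 fold change of -0.16 ± 0.14 (adjusted p = 0.449). High sugar lay above low sugar in all wild-type libraries, and the diets overlapped in mutants.

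The difference between the responses of mRpS5 was -0.75 ± 0.20 on the log2 scale (edgeR, adjusted p = 0.0455). That call was lost in 12 of 21 alternative settings, 9 of which left out 1 library each, with adjusted p up to 0.121. The rise in wild type was lost in 1 of 16 settings, without wild-type low sugar library B (adjusted p = 0.0528).

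mRpS5 has 5 exon entries, of which only the fourth and the fifth had enough counts to be tested on their own. The fifth entry, of 1125 bases, had 49.0, 39.1 and 51.2 CPM in wild type on low sugar and 65.8, 83.4 and 79.3 CPM on high sugar. It carried the rise, with a log2 fold change of 0.67 ± 0.15 (edgeR fit of single entries, adjusted p = 0.00571) and an interaction of -0.77 ± 0.20 (adjusted p = 0.0412). An exon of the same length in the current annotation holds 1079 coding bases of the gene.

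The fourth entry of mRpS5, of 225 bases, had 10.5, 8.77 and 7.16 CPM in wild type on low sugar and 7.84, 6.59 and 7.16 CPM on high sugar. Its groups overlapped, and its log2 fold change was -0.35 ± 0.24 (edgeR, adjusted p = 0.363) in wild type and -0.63 ± 0.25 (adjusted p = 0.098) in mutants. In the current annotation an exon of this length ends 1 of 3 transcripts and holds 0 coding bases. The entries were matched to exons by length, since the builds may differ, and a difference between the entries was not tested.

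**Figure D4:**
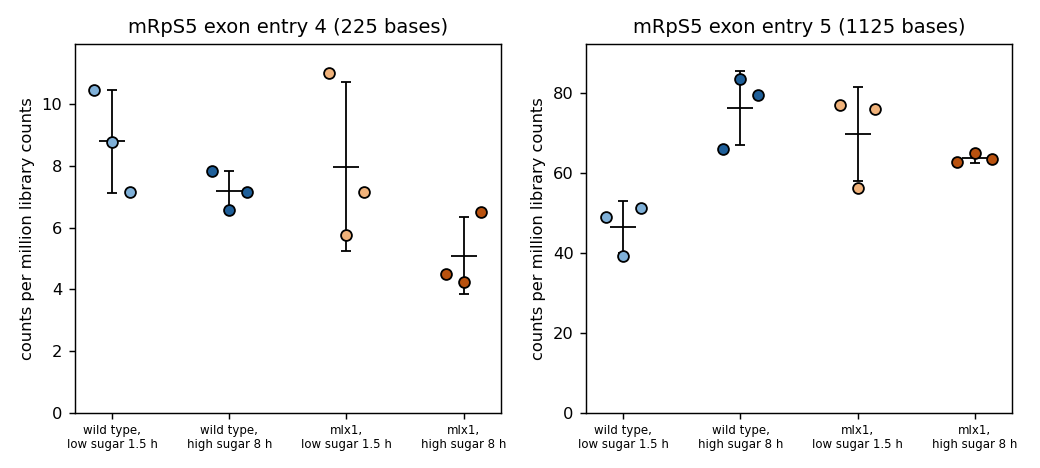
Level, in CPM of library counts, of the fourth (225 bases) and the fifth (1125 bases) exon entry of mRpS5, by library, with the mean and SD of each group (n = 3). The fifth entry is higher in all 3 wild-type libraries on high sugar (76.2 ± 9.24) than in those on low sugar (46.4 ± 6.45), and the fourth entry is not.

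Between the genotypes on low sugar, none of the 70 genes was called in either direction by edgeR or DESeq2. At an unadjusted p under 0.05, 6 were lower and 1 was higher in mutants. Over all genes tested 1.77% were called lower and 1.82% higher. Libraries of the same letter deviated together in both low sugar groups, and with the letter as a block within these 6 libraries, a fit added after seeing the data, mRpS5 was called higher in mutants, at a log2 fold change of 0.43 (edgeR, adjusted p = 0.0274), compared with 0.45 ± 0.14 (adjusted p = 0.114) without the block. The median log2 fold change, mutant over wild type, was -0.02, and 38 of 70 values were negative. On low sugar the mean of mRpL12 was 169 ± 6.46 CPM in controls, and that in mutants was 169 ± 25.4 CPM (SD, n = 3). The genes of mutant low sugar library A were high and those of library B low: the sums were 4621 and 3542 CPM. Library A of both low sugar groups also had the lowest mean log2 level of cuticle genes in its group, 4.49 in wild type and 3.77 in mutants.

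On high sugar 5 of the 70 genes (7.14%) were lower in mutants than in wild type and none was higher, also at an unadjusted p under 0.05, where 24 were lower. By adjusted p, 7.06% of all genes tested were called lower and 6.8% higher, so the count of calls was near the background. The median log2 fold change was -0.23, against 0.00 over all genes, and 62 of 70 values were negative. DESeq2 called 13 lower and none higher, beside 941 lower and 727 higher of 10045 over all genes. This contrast shares its libraries with the diet contrasts. Midgut markers were lower in mutants for 5 of 8 genes and higher for 1, with sums of 3615 to 4211 CPM against 4273 to 5677 CPM in wild type. Of the fat body markers tested 1 of 2 was lower, with sums of 2963 to 4180 CPM against 6644 to 10898 CPM. Muscle markers were higher in mutants for 1 of 10 genes, with sums of 82777 to 89033 CPM against 72689 to 78839 CPM in wild type. The part of the midgut, fat body and muscle markers in the result was not tested.

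mRpL18 was the lowest of the 5 in mutants relative to wild type. Its 36.4, 39.5 and 41.1 CPM in mutants on high sugar lay below the 59.0, 56.1 and 56.6 CPM of wild type on high sugar, at a log2 fold change of -0.55 ± 0.10 (edgeR, adjusted p = 0.00374). mRpL30, a large subunit gene listed at X:4541904-4542679, had 57.3, 63.9 and 64.9 CPM in mutants and 89.9, 86.6 and 91.1 CPM in wild type, at -0.52 ± 0.10 (adjusted p = 0.00499). The genotypes did not overlap for either gene, and both calls held in every alternative setting that could test them.

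mRpS18C was at -0.52 ± 0.14 (edgeR, adjusted p = 0.0317), mRpL24, an early-binding assembly protein in bacteria, at -0.37 ± 0.10 (adjusted p = 0.029) and mRpL13 at -0.34 ± 0.10 (adjusted p = 0.0432) in the same contrast. Each of these calls was lost in 5 or 6 of 16 settings. mRpL24 had nearly the same level in wild type on both diets, 89.6 ± 2.09 and 86.9 ± 2.17 CPM, with 87.5 ± 9.94 CPM in mutants on low sugar and 67.1 ± 5.58 CPM in mutants on high sugar (SD, n = 3). Its fall on high sugar was 0.38 ± 0.10 on the log2 scale in mutants (adjusted p = 0.0142), compared with -0.04 ± 0.10 in wild type (adjusted p = 0.794), and the interaction was -0.34 ± 0.14 (adjusted p = 0.172).

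Mitochondrial ribosomal proteins that the table lists under other names lay in the same range. tko encodes the S12 protein of the decoding site, bonsai the S15 protein and Rlc1 the large subunit protein now named mRpL47. In wild type none of the 3 was called on high sugar by edgeR or DESeq2, though 2 were lower at an unadjusted p under 0.05, and in mutants all 3 fell. tko had 36.4 ± 3.31 CPM in wild type on low sugar and 38.9 ± 3.14 on high sugar, against 41.9 ± 5.32 and 27.9 ± 3.18 CPM in mutants (SD, n = 3). It fell in mutants by 0.59 ± 0.13 on the log2 scale (edgeR, adjusted p = 0.00439), and its interaction of -0.68 ± 0.18 passed (adjusted p = 0.0431), though not in 12 of 21 settings. bonsai fell by 0.55 ± 0.12 in mutants (adjusted p = 0.00495), and had -0.33 ± 0.12 in wild type (adjusted p = 0.0667).

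Other nuclear genes for mitochondrial gene expression were read beside them. Of 8 mitochondrial translation factor genes tested, 4 fell in mutants on high sugar and none was called in wild type by edgeR or DESeq2 (1 was lower at an unadjusted p under 0.05). ico, the mitochondrial elongation factor G1, which moves the ribosome along its message, had 104.6, 83.4 and 85.6 CPM in wild type on low sugar and 76.4, 92.5 and 81.0 CPM on high sugar. In mutants it went from 139, 89.9 and 111 CPM to 44.2, 50.9 and 49.9 CPM. The diets overlapped in wild type and were apart in mutants, and the interaction was -1.10 ± 0.22 (edgeR, adjusted p = 0.0142).

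Of 15 mitochondrial aminoacyl-tRNA synthetase genes, which charge tRNAs with amino acids, 5 fell in mutants and none in wild type by edgeR or DESeq2 (1 at an unadjusted p under 0.05). Of 12 genes for mitochondrial transcription, mRNA and DNA, 4 fell and 1 rose in mutants, and 3 fell and 1 rose in wild type. mtSSB, the single-strand binding protein of mitochondrial DNA, fell in both genotypes, by 0.66 ± 0.15 in wild type and 0.94 ± 0.15 in mutants on the log2 scale (edgeR, adjusted p = 0.00743 and 0.000555). Of 15 import genes 6 were tested: 2 fell in wild type and all 6 in mutants. Tom40, the pore of the outer membrane, fell by 0.42 ± 0.11 in wild type and 0.99 ± 0.11 in mutants (edgeR, adjusted p = 0.0188 and 6e-05).

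**Figure D5:**
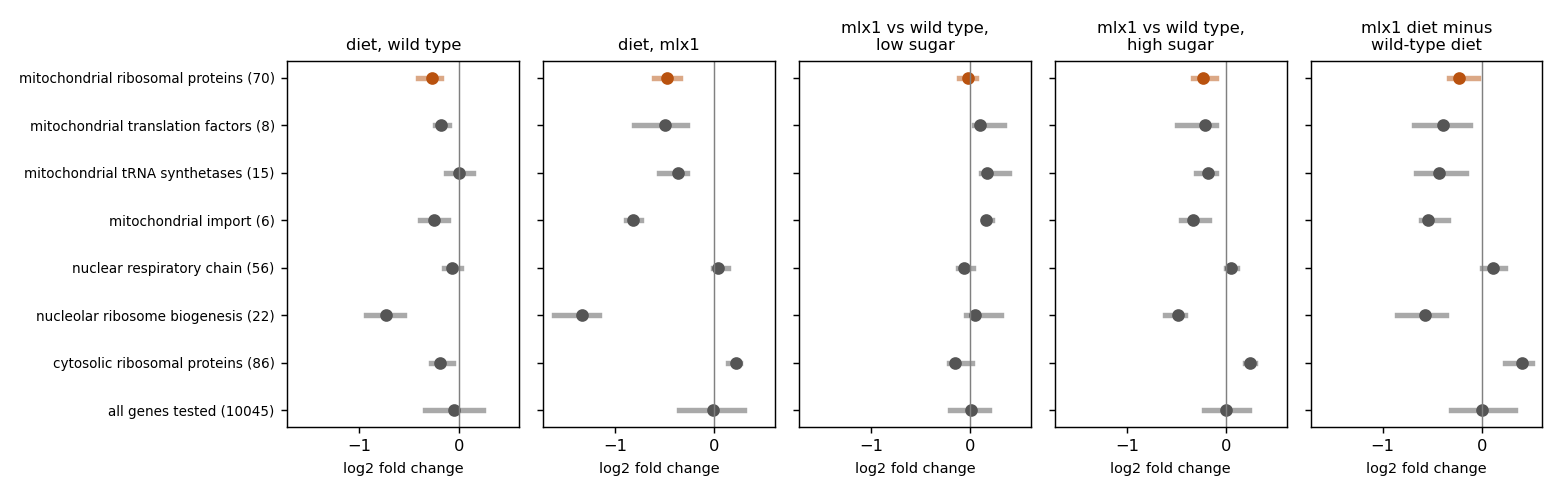
Median log2 fold change (points) and interquartile range (bars) of the mitochondrial ribosomal protein genes and of 6 other gene lists in each contrast, with the number of genes tested in parentheses and all genes tested in the bottom row. The median of the mitochondrial ribosomal protein genes is -0.27 in wild type and -0.48 in mutants on high sugar, between those of the nucleolar genes (-0.73 and -1.34) and the nuclear respiratory chain genes (-0.07 and 0.04).

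Few calls were made among nuclear genes of the respiratory chain, the machine that the products of mitochondrial ribosomes help to build. Of 56 nuclear respiratory chain and ATP synthase genes tested (of 85 listed), 1 fell and none rose in wild type by edgeR, with 4 higher at an unadjusted p under 0.05 and 4 higher by DESeq2. In mutants 1 fell and 1 rose, and the medians were -0.07 and 0.04 on the log2 scale. Transcripts of the mitochondrial DNA varied widely within groups in these polyadenylated libraries, and their sum was 2073 to 4442 CPM in wild type on low sugar and 4728 to 8562 CPM on high sugar. In mutants the diets overlapped, at 4986 to 8353 CPM on low sugar and 5602 to 7827 CPM on high sugar. Of 9 tested, 3 rose in wild type, none was called in mutants by edgeR or DESeq2 or at an unadjusted p under 0.05, and the interaction was called lower for 1.

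The medians of the cytosolic ribosomal protein genes had opposite signs in the genotypes. In wild type 14 of 86 fell on high sugar and none rose by edgeR (2 rose at an unadjusted p under 0.05, and 2 by DESeq2), whereas in mutants 13 rose and 2 fell. The 13 are 15.1% of the 86, near the 13.5% called higher over all genes, and the count depended on the test, with 40 higher and 2 lower by DESeq2 and 45 higher and 2 lower at an unadjusted p under 0.05. Their median log2 fold change was -0.19 in wild type and 0.22 in mutants, where that of the 70 mitochondrial ribosomal protein genes was -0.27 and -0.48. Their interaction was called higher for 18 and lower for none by edgeR, higher for 38 and lower for 1 by DESeq2, and higher for 53 and lower for 1 at an unadjusted p under 0.05. Of 22 nucleolar genes for making cytosolic ribosomes, 18 fell and 2 rose in wild type, and 20 fell and 2 rose in mutants. Their medians were -0.73 and -1.34, and their interaction was called lower for 10 and higher for none.

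Of 8 regulators of growth and mitochondrial genes tested, 2 were called higher and 1 lower on high sugar in each genotype. Their median log2 fold change was -0.09 in wild type and 0.10 in mutants. Spargel (srl), the fly counterpart of PGC-1, was the 1 called lower and fell in both genotypes. It had 113, 150 and 150 CPM in wild type on low sugar and 98.8, 106.6 and 71.1 CPM on high sugar, and 134, 165 and 173 CPM against 50.0, 58.5 and 58.2 CPM in mutants. The diets did not overlap in either genotype, and the log2 fold changes were -0.58 ± 0.17 and -1.50 ± 0.17 (edgeR, adjusted p = 0.0264 and 6.2e-05). Ets97D, the counterpart of the mammalian factor NRF-2 alpha, had -0.31 ± 0.15 and -0.23 ± 0.15 (adjusted p = 0.167 and 0.291), and dm, which encodes Myc, -0.28 ± 0.24 and -0.44 ± 0.24 (adjusted p = 0.417 and 0.188).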

How the data were processed

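Whole larvae were profiled by RNA sequencing of polyadenylated RNA. Per the labels and the submitters' processing notes, BWA 0.5.9, SAMtools and HTSeq 0.6.1 were used; neither genome build nor annotation nor strand setting is given in the sources used here. The authors deposited raw counts, whole numbers per exon entry, for 12 libraries. The table has 82046 entries under 16413 gene names, of which 11755 are current symbols, 4378 older and 280 unmatched; 42 entries without a name (at most 0.0148% of counts) were left out. Without strand, reads of genes that overlap on opposite strands cannot be told apart.

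Counts were summed per gene, filtered with filterByExpr (10045 genes left) and fitted with edgeR 4.0.16 (R 4.3.3; TMM, robust quasi-likelihood, 1 mean per group, 8 residual degrees of freedom, common dispersion 0.0619, normalization factors 0.961 to 1.048). Tests were two-sided with Benjamini-Hochberg adjustment over all genes tested; the ± after a log2 fold change is its standard error. The script was tested on simulated data. Alternatives were RLE and upper-quartile factors, DESeq2 1.42.0, other filters on low counts, a replicate block, 6 libraries only, exons that overlap no other gene, a cuticle covariate and leaving out each library. The fit without 3 libraries low in cuticle genes, the replicate block within the 6 low sugar libraries and the fit of single exon entries (35116 entries, 154 of 70 of the genes) were chosen after seeing the data. Same-letter libraries of both low sugar groups deviated together (r = 0.174 to 0.744 across genes, above 0.1 in 3 of 3), and no other compared groups met this. The labels state no pairing, and 3 letters are too few to show it. The genes, gene lists and rules were chosen with earlier results of these data known.

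Genes were named by rule: per contrast, up to 8 called in each direction by size whose higher group averaged 10 CPM or more, any called against the majority, the highest and lowest per length, those that failed the filter, mRpL12, tko, bonsai and the mRpS18 paralogs. From other lists up to 3 genes by p were eligible. mRpS9, mRpS29 and mRpL14 among the genes not called, the genes at either end of the likeness measure, and Ets97D and dm were chosen after their values were seen. Promoter and protein sequences were not analysed here.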

Additional observations from a re-analysis of the deposited data

Results flagged for a closer look

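By the edgeR interaction (adjusted p under 0.05), the diet response differed between the genotypes for 1 of the 70 mitochondrial ribosomal protein genes. A further 11 genes are given from the lists read beside them. They are all those called among genes under other names, translation factors, synthetases, genes for transcription, mRNA and DNA, import genes and growth regulators, with RpL13 and RpL28. These last were the lowest in adjusted p of 18 called among 86 cytosolic ribosomal protein genes. Calls among nucleolar genes (10 of 22 lower) and transcripts of mitochondrial DNA (1 of 9 lower) are not named. Values are the mutant response minus that of wild type on the log2 scale, with SE. mRpS5 had -0.75 ± 0.20 (adjusted p = 0.0455), with a rise in wild type and no call in mutants. tko, the mitochondrial S12 protein, had -0.68 ± 0.18 (adjusted p = 0.0431). The elongation factor gene ico had -1.10 ± 0.22 (adjusted p = 0.0142). Among the synthetases CG31739 (AspRS-m) had -0.88 ± 0.23 (adjusted p = 0.0453) and CG5414 (IleRS-m) -0.63 ± 0.16 (adjusted p = 0.0361).

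Tim8, a chaperone of import, had -0.93 ± 0.22 (adjusted p = 0.029), Tom40 -0.58 ± 0.16 (adjusted p = 0.0488) and Spargel -0.92 ± 0.24 (adjusted p = 0.0411) in the same test. Positive differences were found for the cytosolic ribosomal protein genes RpL13, at 0.64 ± 0.14 (edgeR, adjusted p = 0.0198), and RpL28, at 0.72 ± 0.14 (adjusted p = 0.0148). The insulin receptor gene InR had 0.81 ± 0.19 (adjusted p = 0.0296) and Thor, a repressor of translation, 1.47 ± 0.27 (adjusted p = 0.0102). Each group had 3 libraries, too few to test a single library as an outlier.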

How the results depend on the processing

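The median log2 fold change of the 70 genes stayed negative in both diet contrasts, between genotypes on high sugar and in the interaction in every setting run, from -0.40 to -0.22 in wild type, -0.57 to -0.38 in mutants, -0.28 to -0.18 on high sugar and -0.30 to -0.11 in the interaction. On low sugar it ran from -0.12 to 0.06. No call on a named gene reversed in direction, 20 of 42 such calls held in every setting and 22 were lost in at least 1. Some estimates that were not called changed sign, such as that of tko in wild type, from -0.03 to 0.16. The cuticle covariate gave 45 lower in wild type, 1 lower between genotypes on low sugar (where 0 were called) and 16 lower on high sugar. Over all genes it gave 1695, 293 and 1204 lower of 10045, against 1164, 178 and 709 without it. Between genotypes on high sugar, where 5 were called lower, RLE factors gave 10, DESeq2 13, no filter 9, at least 5 CPM in 3 libraries 12, the 6 libraries of the groups compared 12, exons that overlap no other gene 8 and leaving out 3 libraries low in cuticle genes 9. Over all genes 709 of 10045 were lower in the main fit. In the same order the alternatives gave 812 of 10045, 941 of 10045, 793 of 13987 and 846 of 8426. The last 3 gave 922 of 9706, 822 of 9545 and 896 of 10138. In the interaction, where 1 was called lower, upper-quartile factors gave 0, DESeq2 3, at least 5 CPM 2, exons without overlap 2 and leaving out the 3 libraries 0. Over all genes 359 of 10045 were lower in the main fit. In the same order the alternatives gave 287 of 10045, 722 of 10045, 527 of 8426, 472 of 9545 and 317 of 10138. Leaving out 1 library at a time gave 10 to 16 lower and 0 to 1 higher in wild type, 29 to 54 lower in mutants, 0 to 1 higher on low sugar, 2 to 4 lower on high sugar and 0 to 3 lower in the interaction. Over all genes the same fits gave 690 to 1112 lower and 681 to 1249 higher in wild type and 1095 to 1715 lower in mutants. They gave 77 to 236 higher on low sugar, 415 to 610 lower on high sugar and 127 to 590 lower in the interaction. The cause of these changes was not tested. The interaction could not be fitted with 6 libraries.

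With the library letter as a replicate block, the interaction gave 0 calls, while 24 genes were lower in wild type, 51 in mutants and 5 between genotypes on high sugar. Over all genes that fit gave, in the same order, 268, 1181, 1564 and 668 of 10045 lower. The replicate block within the 6 low sugar libraries gave 1 higher and 0 lower between genotypes. The labels state no pairing in any contrast. Outside the contrast on low sugar, correlations of same-letter deviations between the groups compared ran from -0.538 to 0.362. With 3 libraries per group such values cannot show that pairing is present or absent. Low counts limit mRpL42 and mRpL53, with at most 3 counts, and the low genes among those not called. Whether depth or reads left uncounted at overlapping entries made them low was not tested.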
